A study of Mus musculus with 40 samples.

Results

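The genes of the axis that draws neutrophils into tissue were followed across CT26 tumors of mice treated with blocking monoclonal antibodies (mAbs): the ligands Cxcl1, Cxcl2, Cxcl3 and Cxcl5, their receptor Cxcr2, and the growth factor Csf3. They were taken by symbol from the deposited count table, where they are 6 of 54087 genes. CT26 is a transplantable mouse colon carcinoma line, and 1000000 cells were injected under the skin of syngeneic BALB/c mice, which the study's methods give as 6 to 12 weeks old. All mice received mAbs on days 6, 9 and 12, and fragments of the tumors were taken on day 13 for bulk RNA sequencing.

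There were 8 groups of 5 mice. The control group received motavizumab, an mIgG2a mAb without a target in mice (isotype control). Clone 58A2, which blocks the release of active TGF-β1 from the GARP:TGF-β1 complex on regulatory T cells, was given as a wild-type mIgG2a (anti-GARP:TGF-β1 (WT), below GARP-WT) or as an Fc-dead form that cannot bind Fcγ receptors (anti-GARP:TGF-β1 (FcD), below GARP-FcD). Another group received clone 1D11, which neutralizes TGF-β from any source (anti-TGF-β), and another an Fc-silent anti-PD-1 mAb (anti-PD-1). In the remaining groups, anti-PD-1 was combined with one of these mAbs, and such groups are named GARP-WT + PD-1, GARP-FcD + PD-1 and TGF-β + PD-1. Every tumor came from the same cell line, so the tumor cells were not independent between mice.

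CXCL1, CXCL2, CXCL3 and CXCL5 belong to the CXC chemokines that carry a Glu-Leu-Arg motif before the first cysteines. They bind CXCR2, a G protein-coupled receptor found mainly on neutrophils, and attract these cells out of the blood. Macrophages, fibroblasts, endothelial cells, tumor cells and neutrophils themselves can make the ligands, usually under IL-1, TNF or IL-17 signals that act through NF-κB. G-CSF, the product of Csf3, promotes the production of neutrophils in the bone marrow and their release from it. The mRNAs of such inflammatory factors are often short-lived, because proteins that bind AU-rich stretches in the 3′ UTR direct their decay.

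The 4 ligand genes lie on chromosome 5 within 146.579 kb (GRCm38, chr5:90759360-90905938, + strand) in the order Cxcl5, Cxcl3, Cxcl1 and Cxcl2. Cxcr2 lies at chr1:74153989-74161246 and Csf3 at chr11:98701263-98703629, also on the + strand. Promoter sequences from RefSeq (GRCm38.p6, 250 bases before and 50 after the annotated start) were found for 4 of the 6 genes: Cxcl1, Cxcl2, Cxcl3 and Cxcr2. Those of Cxcl1 (chr5:90890995-90891294), Cxcl2 (chr5:90903649-90903948) and Cxcl3 (chr5:90785851-90786150), all + strand, are printed because these neighbours share an exact run of letters. Capitals mark that run, which matches the NF-κB consensus on both strands, and the letters ATAAAA of a TATA-like element.
Cxcl1: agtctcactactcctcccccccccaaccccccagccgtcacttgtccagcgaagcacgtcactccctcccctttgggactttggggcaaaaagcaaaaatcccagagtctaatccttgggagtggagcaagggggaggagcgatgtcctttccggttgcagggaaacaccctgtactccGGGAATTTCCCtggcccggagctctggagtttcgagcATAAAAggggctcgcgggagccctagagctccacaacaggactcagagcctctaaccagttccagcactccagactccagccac
Cxcl2: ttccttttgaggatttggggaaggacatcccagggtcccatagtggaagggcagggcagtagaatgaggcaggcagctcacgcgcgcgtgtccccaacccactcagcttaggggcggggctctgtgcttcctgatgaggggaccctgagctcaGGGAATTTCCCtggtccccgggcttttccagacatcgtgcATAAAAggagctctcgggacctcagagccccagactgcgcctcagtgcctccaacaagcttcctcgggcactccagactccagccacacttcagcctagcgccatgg
Cxcl3: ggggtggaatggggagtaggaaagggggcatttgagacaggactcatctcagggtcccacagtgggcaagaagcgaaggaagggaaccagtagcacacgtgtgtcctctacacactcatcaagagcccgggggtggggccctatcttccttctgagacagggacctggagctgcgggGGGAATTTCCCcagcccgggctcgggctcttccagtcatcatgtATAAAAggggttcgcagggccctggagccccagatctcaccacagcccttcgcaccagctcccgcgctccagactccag

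The run GGGAATTTCCC began 71, 97 and 73 bases before the start of Cxcl1, Cxcl2 and Cxcl3, respectively, and ATAAAA began 34, 57 and 29 bases before it. Of 32851 promoters of this length, 14 (0.0426%) held the same run, 8.46% held a match to the NF-κB consensus on either strand, and 3.11% held ATAAAA in the 60 bases before the start. The Cxcr2 promoter held neither an NF-κB consensus match nor ATAAAA in that window. Both strands were also searched for an AP-1 motif (TGANTCA, in 7.81% of all promoters) and a GC box (GGGCGG, in 35.7%). The GC box was found in the Cxcl2 promoter, and the AP-1 and C/EBP motifs in none of the 4. A match describes letters and is not a site in these tumors.

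In the 3′ UTRs (GENCODE M21 transcripts), the core AU-rich element ATTTA, read as AUUUA in the RNA, occurred 7 times in 592 bases of Cxcl1, 11 times in 1494 bases of Cxcl2, 5 times in 645 bases of Cxcl3 and 5 times in 1111 bases of Cxcl5. Csf3 held 6 in 669 bases and Cxcr2 2 in 1818 bases. The median of 12392 genes was 1.3 per kb, against 11.8 per kb in Cxcl1, 8.97 in Csf3, 7.75 in Cxcl3, 7.36 in Cxcl2, 4.50 in Cxcl5 and 1.10 in Cxcr2. A density as high as that of Cxcl1 was found in 0.508% of genes, and one as high as that of Cxcr2 in 54.5%. The densest 30 bases of the 4 genes with the highest densities are shown because they hold from 2 to 5 copies each. The densest 30 bases of Cxcl5 and of Cxcr2 held 1 copy each. Capitals mark ATTTA, and overlapping copies share bases. They lie at chr5:90892602-90892631 (Cxcl1), chr5:90905327-90905356 (Cxcl2), chr5:90787629-90787658 (Cxcl3) and chr11:98702984-98703013 (Csf3), all + strand.
Cxcl1: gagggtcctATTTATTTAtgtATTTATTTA
Cxcl2: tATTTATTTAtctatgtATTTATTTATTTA
Cxcl3: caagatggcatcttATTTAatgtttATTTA
Csf3: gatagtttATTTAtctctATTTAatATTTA

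Read counts per mouse summed to 11931730 to 20680548, and 14760 of 54087 genes passed the filter on low counts. Values are CPM, which are counts scaled to an equal library size with TMM factors, and a CPM per kb is divided by the exon length of the gene. Differences were tested by the quasi-likelihood method of edgeR, with the 8 groups in 1 model and Benjamini-Hochberg adjustment over all 14760 genes, and ± marks the standard error (SE) of a log2 difference. The library numbers in the sample titles run from 41 to 60 and from 61 to 80, with 2 or 3 mice of every group in each run. The labels do not say what separates these runs. Earlier results of these data showed that they differ in sex-chromosome transcripts, whose values are not given here. Between the runs, 248 of 14760 genes (1.68%) differed at an adjusted p under 0.05. The defining neutrophil markers were at low levels: Ly6g, the classical surface marker, had 0 to 4 reads and was at 0 in 24 of 40 mice, S100a9 had a median of 10.1 CPM and Csf3r of 22.5 CPM. Bulk RNA cannot tell apart fewer cells of a type and less RNA per cell, which holds for every difference below.

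Per kb of exon, Cxcl1 was the most abundant of the ligands and Csf3 the least abundant of the 6 genes. Mean levels over the 40 mice were 14.1 ± 7.81 CPM per kb (SD, n = 40) for Cxcl1, 5.22 ± 5.82 for Cxcl2, 4.49 ± 5.09 for Cxcl3, 3.30 ± 3.74 for Cxcl5, 0.779 ± 1.21 for Cxcr2 and 0.114 ± 0.116 for Csf3. Cxcl1 varied least between mice, with an SD of 0.71 on the log2 CPM scale, against 1.46 for Cxcl2, 1.44 for Cxcl3, 1.35 for Cxcr2 and 1.02 for Cxcl5. Of the 6 genes, 5 passed the filter, and Csf3 did not. The 5 values of a group are given below in the order of the library numbers.

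**Figure D1:**
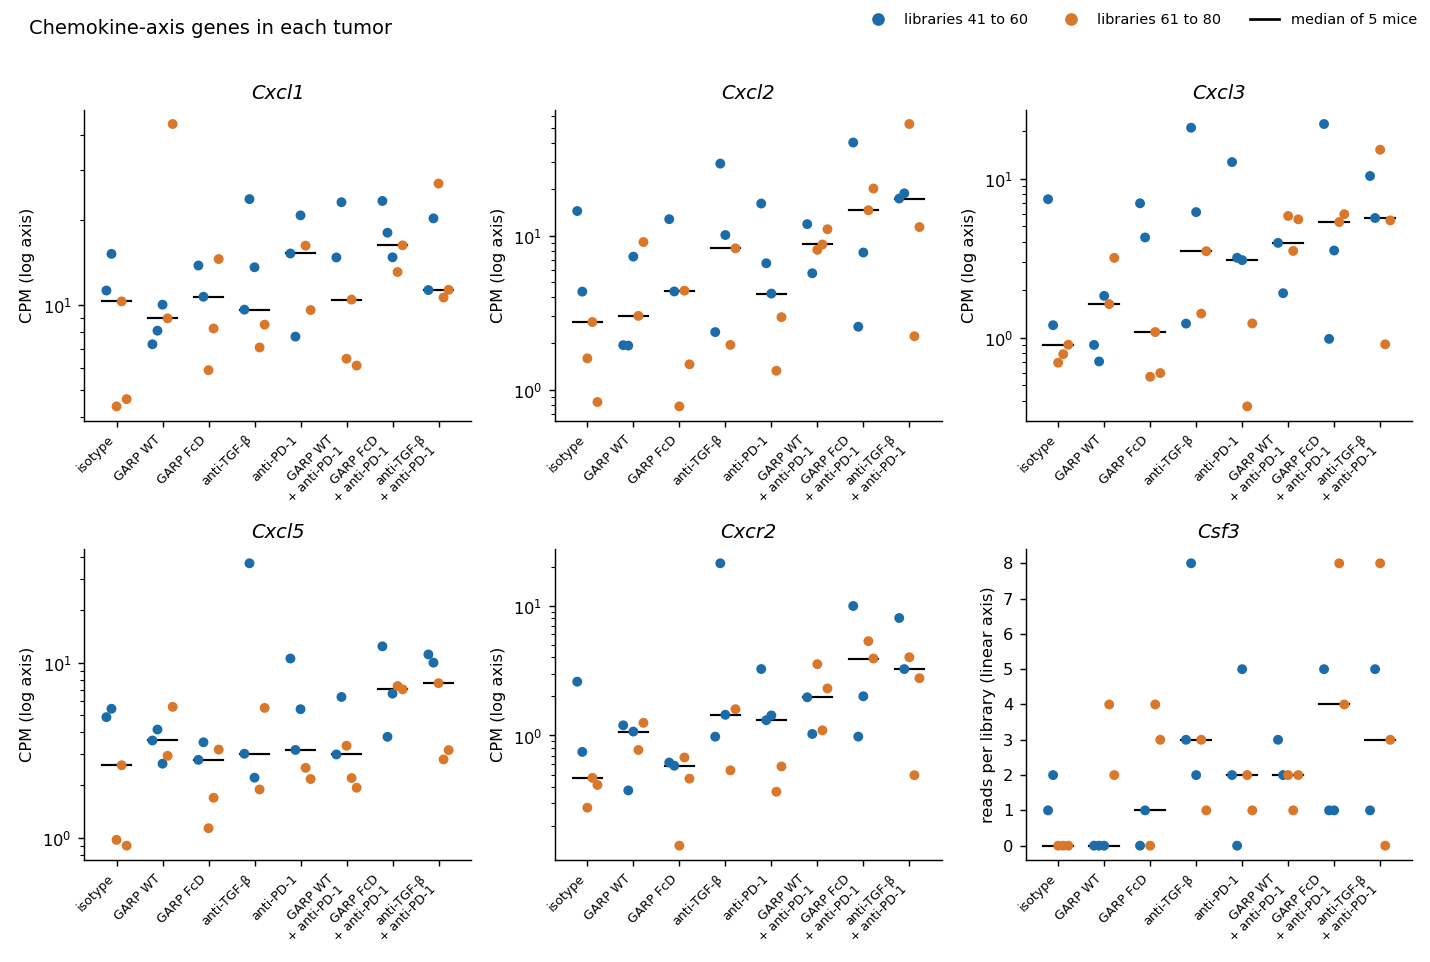
Level of each gene in each of 40 tumors, in CPM on a log axis, or for Csf3 in reads per library on a linear axis. Each point is a mouse (5 per group), colored by library number, and each line is the median of 5 mice. A few mice stand far above the rest of their group, such as library 48 among the anti-TGF-β mice, where Cxcr2 was at 21.2 CPM.

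Cxcr2, the receptor shared by these ligands, was low in isotype control tumors, at 2.60, 0.747, 0.278, 0.471 and 0.416 CPM (libraries 46, 51, 63, 74 and 78). The mouse of library 46 stood above the others of this group. Tumors treated with GARP-WT held 1.197, 0.377, 1.07, 0.773 and 1.25 CPM, and those treated with GARP-FcD 0.619, 0.585, 0.142, 0.677 and 0.465 CPM. Both groups overlapped the isotype control. Under anti-PD-1 alone, Cxcr2 was at 3.25, 1.31, 1.43, 0.369 and 0.577 CPM, with 1 mouse of 5 above all controls.

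Under anti-TGF-β alone, Cxcr2 was at 0.979, 21.2, 1.44, 0.539 and 1.59 CPM (libraries 43, 48, 59, 72 and 79). A single mouse, library 48, was above the range of the isotype control. In the combination of GARP-WT with anti-PD-1, Cxcr2 was at 1.97, 1.03, 3.54, 1.10 and 2.30 CPM, and 5 of 5 mice were above the median of the isotype control. With GARP-FcD + PD-1, the values were 9.94, 0.980, 2.004, 5.33 and 3.92 CPM (libraries 44, 50, 60, 71 and 80). With TGF-β + PD-1, they were 8.03, 3.25, 4.01, 0.494 and 2.76 CPM (libraries 53, 57, 62, 66 and 68). Of these combinations, 3 of 5 and 4 of 5 mice, respectively, exceeded the highest isotype control mouse, yet each still held a mouse within the range of the controls.

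Cxcl2, encoding MIP-2, a chemokine made by activated macrophages and neutrophils, was at 14.5, 4.33, 1.597, 2.75 and 0.831 CPM in isotype control tumors, again with library 46 as the highest. Its values under GARP-WT were 1.95, 1.93, 7.31, 3.01 and 9.10 CPM, and under GARP-FcD they were 12.8, 4.34, 0.779, 4.40 and 1.46 CPM. No mouse of these 2 groups exceeded the highest control. Anti-PD-1 alone gave 16.2, 6.62, 4.21, 1.33 and 2.96 CPM, and anti-TGF-β alone 2.37, 29.4, 10.1, 1.95 and 8.27 CPM. In each of these groups 1 mouse of 5 was above the controls.

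In the combinations, Cxcl2 was at 11.9, 5.70, 8.10, 8.77 and 11.02 CPM with GARP-WT. It was at 40.3, 2.56, 7.77, 14.6 and 20.2 CPM with GARP-FcD, and at 17.4, 18.8, 53.1, 2.22 and 11.4 CPM with anti-TGF-β. The first of these groups was the most even, with an SD of 0.41 on the log2 scale, and lay within the range of the controls. In the others, 3 of 5 mice were above all controls, and the highest value of all 40 mice was in library 62.

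Cxcl5, encoding LIX, which is produced largely by epithelial and stromal cells, was at 4.88, 5.45, 0.972, 2.59 and 0.901 CPM in isotype control tumors. Under GARP-WT it was at 3.59, 4.15, 2.65, 2.94 and 5.59 CPM, and under GARP-FcD at 2.78, 3.51, 1.13, 1.69 and 3.19 CPM. Both groups overlapped the controls, with 1 mouse of the former just above them. Under anti-TGF-β alone it was at 3.02, 37.0, 2.20, 1.89 and 5.51 CPM, with library 48 far above the controls and library 79, at 5.51 CPM, just above the highest of them. Its values under anti-PD-1 alone were 10.6, 3.17, 5.42, 2.51 and 2.16 CPM.

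In the combinations with anti-PD-1, Cxcl5 was at 2.99, 6.37, 3.35, 2.19 and 1.93 CPM with GARP-WT, so that 1 mouse of 5 was above the controls. With GARP-FcD it was at 12.4, 3.77, 6.65, 7.35 and 7.04 CPM, and 4 of 5 mice were above all controls. With anti-TGF-β it was at 11.1, 10, 7.63, 2.80 and 3.16 CPM, with 3 of 5 above all controls.

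Cxcl3, a close relative of Cxcl2, was at 7.42, 1.195, 0.694, 0.786 and 0.901 CPM in isotype control tumors, with the mouse of library 46 at the top. Under GARP-WT it was at 0.898, 0.707, 1.83, 1.62 and 3.17 CPM, and under GARP-FcD at 6.99, 4.26, 0.566, 1.08 and 0.598 CPM. No mouse of these groups exceeded the highest control. Anti-PD-1 alone gave 12.7, 3.17, 3.07, 0.369 and 1.23 CPM, and anti-TGF-β alone 1.22, 20.9, 6.15, 1.41 and 3.49 CPM, with 1 mouse of each group above the controls.

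Cxcl3 in the combinations with anti-PD-1 was at 3.94, 1.90, 5.82, 3.51 and 5.54 CPM with GARP-WT. It was at 22.1, 0.980, 3.53, 5.33 and 5.97 CPM with GARP-FcD, and at 10.4, 5.65, 15.2, 0.906 and 5.45 CPM with anti-TGF-β. All 5 mice of each combination were above the control median of 0.901 CPM, but 0, 1 and 2 of 5, respectively, were above the highest control mouse.

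Cxcl1, encoding KC, was the most even of the ligands, at 11.2, 15.2, 4.37, 10.3 and 4.64 CPM in isotype control tumors. Under GARP-WT it was at 7.26, 8.11, 10.02, 8.97 and 43.7 CPM, and the last of these, library 73, was the highest of all 40 mice. GARP-FcD gave 13.8, 10.7, 5.88, 8.25 and 14.5 CPM, within the range of the controls. Anti-TGF-β alone gave 9.63, 23.7, 13.6, 7.07 and 8.52 CPM and anti-PD-1 alone 15.2, 7.73, 20.8, 16.2 and 9.59 CPM.

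With anti-PD-1 added, Cxcl1 was at 14.7, 23.1, 6.45, 10.4 and 6.10 CPM with GARP-WT. It was at 23.3, 18.02, 14.7, 13.1 and 16.3 CPM with GARP-FcD, and at 11.3, 20.3, 26.9, 10.6 and 11.3 CPM with anti-TGF-β. All 5 mice of these last groups were above the control median of 10.3 CPM, and 3 and 2 of 5, respectively, were above all controls.

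Csf3 gave 90 reads in all 40 libraries together, with 0 reads in 10 mice, 1 to 3 in 21 and more than 3 in 9. A count of 0 allows up to 3 reads, or 0.145 to 0.251 CPM at the depths of these libraries, for counting error only. Isotype control mice had 1, 2, 0, 0 and 0 reads, those given GARP-WT 0, 0, 0, 4 and 2, those given GARP-FcD 0, 1, 0, 4 and 3, and those given anti-PD-1 alone 2, 0, 5, 2 and 1. Under anti-TGF-β alone there were 3, 8, 2, 3 and 1 reads. The combinations had 3, 2, 2, 1 and 2 reads (GARP-WT), 5, 1, 1, 8 and 4 (GARP-FcD) and 1, 5, 8, 0 and 3 (anti-TGF-β). Summed over 5 mice, this was 3 reads in the isotype control against 17, 19 and 17 reads in the groups given anti-TGF-β, GARP-FcD + PD-1 and TGF-β + PD-1. With the filter removed, the edgeR log2 difference from the isotype control was 2.44 ± 0.98 for GARP-FcD + PD-1 (adjusted p = 0.410) and 2.35 ± 0.99 for anti-TGF-β (adjusted p = 0.967). At these counts the fitted differences depend on the prior count, and Csf3 was near the limit of detection in every group.

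The design asks first whether each treatment changed these genes relative to the isotype control, and the 7 comparisons share the same 5 isotype control mice. None of the 5 tested genes passed an adjusted p of 0.05 in any of these 7 comparisons by edgeR. This was so for the whole table: 0 of 14760 genes (0%) passed for GARP-WT, GARP-FcD, anti-TGF-β, anti-PD-1 and each of the 3 combinations. Other settings also called none of the 5 genes here, but their counts over the whole table differed. DESeq2 called 1 gene each for GARP-WT, anti-TGF-β and anti-PD-1. With GARP-FcD + PD-1, 17 genes (0.115%) passed with the library numbers as a covariate, 177 of 13648 with these 2 groups alone in the model and 14 by DESeq2 (0.0447%). With TGF-β + PD-1, 8 passed with the 2 groups alone (0.0593%), 139 by DESeq2 (0.444%), 2006 of 14951 (13.4%) without library 53 and 730 of 14946 (4.88%) without library 63, a control mouse. At an unadjusted p under 0.05, genes were called higher in the combinations of anti-PD-1 with GARP-FcD (3 of 5: Cxcr2, Cxcl2 and Cxcl5) and with anti-TGF-β (2 of 5: Cxcl2 and Cxcr2), and under anti-TGF-β alone (2 of 5: Cxcr2 and Cxcl5). The shares of all tested genes called higher were 10.7%, 8.49% and 1.77%, respectively. In the combination with GARP-WT, 0 of 5 were called, against 13.2% of all genes called higher. These shares turned on single mice. With 1 mouse left out at a time, the share ran from 5.30% (without library 71) to 14.9% (without library 50) for GARP-FcD + PD-1, from 4.92% (62) to 13.1% (53) for TGF-β + PD-1, from 0.511% (48) to 3.16% (59) for anti-TGF-β and from 2.81% (77) to 17.4% (55) for GARP-WT + PD-1.

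Among the 5 tested genes, the largest difference of a combination from the isotype control was that of Cxcr2 with GARP-FcD + PD-1. The log2 difference was 2.26 ± 0.80, a 4.805-fold higher level with a 95% interval of 1.57 to 14.7 (edgeR, adjusted p = 0.236). In the same comparison, the log2 differences were 1.82 ± 0.81 for Cxcl2 (adjusted p = 0.270), 1.76 ± 0.87 for Cxcl3 (adjusted p = 0.302), 1.33 ± 0.63 for Cxcl5 (adjusted p = 0.289) and 0.90 ± 0.45 for Cxcl1 (adjusted p = 0.306). The 5 genes were thus all higher, with a median log2 difference of 1.76 against -0.0040 over all genes tested. They are not independent observations, since their levels were correlated across mice (r up to 0.94). Single mice moved these values in both directions. Without library 44 of the combination, the value was 1.23 for Cxcl2, 1.07 for Cxcl5 and 0.83 for Cxcl3, all with an unadjusted p above 0.05, and that of Cxcr2 was 1.73 (adjusted p = 0.537). Without library 46, the highest control, it was 3.19 for Cxcr2, 2.84 for Cxcl2 and 3.06 for Cxcl3 (adjusted p = 0.209 for each by edgeR). The unadjusted call of Cxcl2 was also lost without library 51, 63, 74 or 78, and that of Cxcl5 without library 63, 71, 74, 78 or 80. Calls were gained for Cxcl3 without library 46, 50, 60 or 71 and for Cxcl1 without library 51 (1.16) or 71 (0.98).

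With TGF-β + PD-1, the log2 difference from the isotype control was 2.09 ± 0.81 for Cxcl2 (adjusted p = 0.173 by edgeR) and 2.01 ± 0.80 for Cxcr2 (adjusted p = 0.179). Those of Cxcl3 (1.75 ± 0.87), Cxcl5 (1.23 ± 0.63) and Cxcl1 (0.82 ± 0.45) had intervals that included 0. The median over the 5 genes was 1.75, against 0.022 over all genes. Without library 62, Cxcl2 was at 1.37, and without library 53, Cxcr2 was at 1.53, both with an unadjusted p above 0.05. Without library 46 of the controls, Cxcl2 was at 3.12, Cxcl3 at 3.06 and Cxcr2 at 2.94 (adjusted p = 0.200, 0.214 and 0.212 by edgeR). Calls at an unadjusted p under 0.05 were gained for Cxcl3 without library 46 or 66, for Cxcl5 without library 46, 51, 66 or 68 (1.41 to 1.56) and for Cxcl1 without library 51 (1.08).

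With GARP-WT + PD-1, the differences were smaller in size, from 0.19 ± 0.63 for Cxcl5 to 1.11 ± 0.80 for Cxcr2 (adjusted p = 0.416 by edgeR), with a median of 0.89 against 0.013 over all genes. Without library 46 of the controls, Cxcl2, Cxcl3 and Cxcr2 were at 1.94, 2.20 and 2.04 (adjusted p = 0.229, 0.2199 and 0.221 by edgeR), so that 3 of 5 genes were called at an unadjusted p under 0.05, against 12.1% of all genes called higher. These values alone do not compare the forms of the mAb. Set directly against each other, the combinations with the FcD and the WT form differed by 1.16 ± 0.75 for Cxcr2 (95% interval -0.36 to 2.68), 1.13 ± 0.62 for Cxcl5 (-0.13 to 2.39), 0.91 ± 0.78 for Cxcl2 (-0.67 to 2.498), 0.87 ± 0.84 for Cxcl3 (-0.82 to 2.57) and 0.49 ± 0.44 for Cxcl1 (-0.42 to 1.39). None of the 5 genes passed at p under 0.05 in that comparison, except Cxcl5 when library 55 of the WT combination was left out (1.502, adjusted p near 1 by edgeR). Of all genes, 192 of 14760 were called there in either direction at that threshold. With 1 mouse left out, the share ran from 1.10% (without library 71) to 5.35% (without library 77). After adjustment, 0% of all genes passed.

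**Figure D2:**
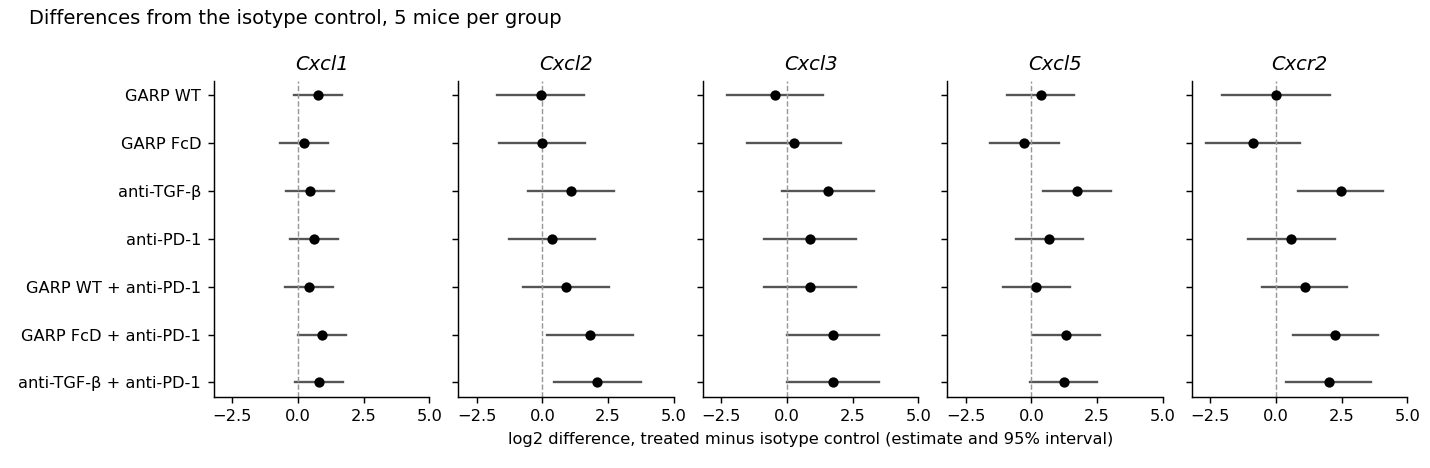
Log2 difference of each treated group from the isotype control for the 5 genes that passed the filter, with the 95% interval from the edgeR model. The horizontal axis is the log2 difference, treated minus isotype control, and the dashed line marks 0. The estimates for both anti-GARP:TGF-β1 mAbs given alone lie near 0 for Cxcl2, and the intervals for Cxcr2 lie above 0 under anti-TGF-β, GARP-FcD + PD-1 and TGF-β + PD-1.

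For the mAbs given alone, single mice decided several values. Under anti-TGF-β, the log2 difference from the isotype control was 2.47 ± 0.80 for Cxcr2 (95% interval 0.85 to 4.09) and 1.74 ± 0.63 for Cxcl5 (0.45 to 3.02), with an adjusted p near 1 for both by edgeR. Without the mouse of library 48, these values were 0.31 and 0.098, and those of Cxcl3, Cxcl2 and Cxcl1 were 0.46, 0.23 and 0.082. Without library 46 of the controls, they rose instead, to 3.40 for Cxcr2, 2.87 for Cxcl3, 1.99 for Cxcl5 and 2.13 for Cxcl2, all called at an unadjusted p under 0.05, where 2.07% of all genes were higher, and Cxcl3 was also called without library 43 or 72. The adjusted p stayed near 1. Under anti-PD-1 alone, the 5 genes were at 0.37 to 0.88 with intervals that included 0, but Cxcl3 was called without library 46 (2.19, adjusted p near 1 by edgeR), where 0.856% of all genes were higher. Under GARP-WT, Cxcl1 was at 0.76 ± 0.45, turned to -0.091 without library 73 and was called without library 51 (1.02, adjusted p near 1 by edgeR), where 0.461% of all genes were higher, and under GARP-FcD the lowest value was -0.87 ± 0.88 for Cxcr2. Over the 5 genes, the median log2 difference was 1.56 (anti-TGF-β), 0.60 (anti-PD-1), 0.0018 (GARP-WT) and -0.016 (GARP-FcD).

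The next question is what the combinations added to either partner. Against anti-PD-1 alone, Cxcr2 was higher by 1.67 ± 0.77 with GARP-FcD + PD-1 (adjusted p = 0.458 by edgeR), 1 of 5 genes at an unadjusted p under 0.05, as were 6.46% of all genes. Cxcl2 was higher by 1.72 ± 0.80 with TGF-β + PD-1 (adjusted p = 0.275), 1 of 5 genes against 7.0% of all genes. Both calls were lost without any of several mice, among them library 44, where Cxcr2 was at 1.14, and library 62, where Cxcl2 was at 0.998. Without library 47 of the anti-PD-1 mice, Cxcl3 was called in both comparisons, at 1.93 in each (adjusted p = 0.634 with GARP-FcD + PD-1 and 0.238 with TGF-β + PD-1 by edgeR), as were Cxcl2 with GARP-FcD + PD-1 (2.16, adjusted p = 0.544) and Cxcr2 with TGF-β + PD-1 (1.996, adjusted p = 0.205). Of all genes, 5.09% and 7.87% were then called higher in these comparisons. Cxcl2 was also called with GARP-FcD + PD-1 without library 50 (1.72), and Cxcr2 with TGF-β + PD-1 without library 66 (1.69). Over all left-out mice, these shares ran from 2.77% (without library 71) to 11.9% (without library 52) with GARP-FcD + PD-1 and from 3.97% (without library 62) to 11.8% (without library 53) with TGF-β + PD-1. With GARP-WT + PD-1, the 5 differences from anti-PD-1 alone ran from -0.49 to 0.54. After adjustment, 0% of all genes passed in the comparisons of the anti-GARP:TGF-β1 combinations with anti-PD-1, and 1 gene, or 0.00678%, in that of TGF-β + PD-1. The last count was 78 of 31287 (0.249%) by DESeq2 and 1734 of 14951 (11.6%) by edgeR without library 53, and that of GARP-WT + PD-1 was 538 of 14939 without library 52.

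Against the partner mAb alone, the largest difference among the 5 tested genes was that of Cxcr2 in the combination with GARP-FcD. It was higher by 3.14 ± 0.85 than under GARP-FcD alone, an 8.79-fold difference with a 95% interval of 2.66 to 29.0 (edgeR, adjusted p = 0.122). All 5 mice of the combination (0.980 to 9.94 CPM) were above all 5 mice of the partner mAb (0.142 to 0.677 CPM). These groups were the first and the last of the 8 in mean level of this gene. How many of all genes separate them in this way was not counted. Cxcl2 was higher by 1.84 ± 0.81 (adjusted p = 0.198) and Cxcl5 by 1.597 ± 0.64 (adjusted p = 0.169), so that 3 of 5 genes were called at an unadjusted p under 0.05, against 13.0% of all genes. DESeq2 gave Cxcr2 an adjusted p of 0.0289 in this comparison, with 0.556% of all genes called (174 of 31287), and edgeR on these 2 groups alone gave 0.0469 for Cxcr2 and Cxcl5, with 3.49% called (476 of 13654). Without library 50, the log2 difference of Cxcr2 was 3.37 (adjusted p = 0.0420 by edgeR), where 4.81% of all genes were called (719 of 14955). Without library 44 it was 2.60 (adjusted p = 0.281), and Cxcl2, at 1.24, and Cxcl5, at 1.33, were no longer called. The call of Cxcl2 was also lost without library 58, 61, 70 or 75, and Cxcl3 was called without library 41 (2.23) or 50 (1.75). The share of all genes called higher ran from 8.12% (without library 71) to 16.6% (without library 50). For TGF-β + PD-1 against anti-TGF-β, the 5 differences ran from -0.51 to 0.99, and without library 48, Cxcr2 was at 1.70, Cxcl2 at 1.86 and Cxcl5 at 1.13 (adjusted p = 0.484 for each by edgeR), where 4.88% of all genes were higher at an unadjusted p under 0.05. For the WT form they ran from -0.35 to 1.35. In the main model, 0% of all genes passed after adjustment in each of these 3 comparisons. For the WT form, 332 of 31287 (1.06%) passed by DESeq2 and 1707 of 14952 (11.4%) by edgeR without library 55, none of them one of the 5 genes.

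The interaction tests whether the difference made by a mAb depends on anti-PD-1. For GARP-FcD, the interaction of Cxcr2 was 2.55 ± 1.17 on the log2 scale (adjusted p = 0.787 by edgeR), 1 of 5 genes at an unadjusted p under 0.05, against 2.45% of all genes in the same direction, a share that ran from 1.42% (without library 71) to 6.99% (without library 52). It was no longer called without library 44, 46, 61, 67 or 76, with the lowest value, 1.598, without library 46. No gene of the 5 was called at p under 0.05 in the other interactions, those of GARP-WT and of anti-TGF-β, except Cxcl1 in that of GARP-WT when library 55 was left out (-1.32, adjusted p = 0.296 by edgeR), where 7.58% of all genes were lower. At this threshold, 8.75% and 2.30% of all genes were called in either direction, and with 1 mouse left out these shares ran from 3.37% (47) to 18.5% (52) and from 1.26% (63) to 11.8% (53). By edgeR, 0% of all genes passed after adjustment in the 3 interactions, and DESeq2 called 1 gene for GARP-WT, 0 for GARP-FcD and 2 for anti-TGF-β.

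Across the 8 groups at once, the order of mean log2 levels had the combinations of anti-PD-1 with GARP-FcD and with anti-TGF-β in the first 2 places for each of the 5 genes. The isotype control was last for Cxcl1, Cxcl2 and Cxcl3, and GARP-FcD was last for Cxcl5 and Cxcr2. For Cxcr2, the means ran from 1.81 (SD 1.22) with GARP-FcD + PD-1 over 1.54 with TGF-β + PD-1, 1.09 with anti-TGF-β, 0.95 with GARP-WT + PD-1, 0.30 with anti-PD-1, 0.017 with GARP-WT and -0.31 in the isotype control to -0.74 (SD 0.63) with GARP-FcD. No 2 neighbours in the order of any gene were apart by more than the larger of their SDs. In the test of any difference among the groups, the adjusted p by edgeR was 0.118 for Cxcr2, 0.165 for Cxcl5, 0.182 for Cxcl2, 0.286 for Cxcl3 and 0.629 for Cxcl1. At an unadjusted p under 0.05, 3 of 5 genes were called, against 24.7% of all genes, and 0.0271% of all genes passed after adjustment. The unadjusted call of Cxcl2 was lost without any of several mice, among them libraries 44 and 62, and Cxcl3 was called without library 46 or 47. The likelihood ratio test of DESeq2 gave Cxcr2 an adjusted p of 0.00263 and left the other 4 genes above 0.05, with 4.01% of all genes called (1256 of 31288). By edgeR, the adjusted p of Cxcr2 was 0.0206 without library 48, 0.0344 without library 50 and 0.0254 without library 53, where 2.61%, 7.74% and 15.3% of all genes were called, respectively, and it was above 0.05 when any other mouse was left out.

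The estimates of all 5 genes were lower in the later libraries, with none past an adjusted p of 0.05 by edgeR. With the groups accounted for, libraries 61 to 80 were lower than libraries 41 to 60 by 0.95 ± 0.29 for Cxcl5 on the log2 scale (edgeR, adjusted p = 0.0873), by 1.10 ± 0.44 for Cxcl3 (adjusted p = 0.254) and by 0.91 ± 0.40 for Cxcr2 (adjusted p = 0.319). The differences of Cxcl2 (-0.79 ± 0.41) and Cxcl1 (-0.31 ± 0.23) had intervals that included 0. Thus 3 of 5 genes were called lower at an unadjusted p under 0.05, against 7.03% of all genes. Leaving out 1 mouse made Cxcl2 called for 9 of the 40 mice, and Cxcl1 was called without library 73 (-0.54). The call of Cxcl3 was lost without library 44 or 46, and that of Cxcr2 without library 44, 46, 48, 53, 67, 72 or 79. The median level of Cxcl5 was 4.52 CPM in the earlier and 2.70 CPM in the later libraries.

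Differences from the isotype control were also taken within each run of libraries. With GARP-FcD + PD-1, the log2 difference of Cxcr2 was 1.35 within libraries 41 to 60 and 3.55 within libraries 61 to 80 (adjusted p = 0.998 and 0.141 by edgeR). With TGF-β + PD-1, Cxcl2 was at 0.94 and 3.70, respectively. With GARP-WT + PD-1, Cxcr2 was at -0.19 and 2.56, and Cxcl2 at -0.11 and 2.44, so that the direction differed between the runs. The difference between the runs itself was 2.20 for Cxcr2 with the FcD combination (95% interval -0.77 to 5.18), 2.76 for Cxcl2 with the anti-TGF-β combination (-0.42 to 5.93) and 2.75 for Cxcr2 with the WT combination (-0.35 to 5.86), all intervals that included 0. It was 3.22 for Cxcl3 with the WT combination (0.083 to 6.35, adjusted p = 0.445 by edgeR), called at an unadjusted p under 0.05, as were 5.53% of all genes in the same direction. Each run holds 2 or 3 mice per group, and library 46, the isotype control mouse with the highest Cxcr2, Cxcl2 and Cxcl3, belongs to the earlier run.

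The same few mice were high for several of the genes. Libraries 48, 44 and 62 were among the 8 highest mice for all 5 tested genes, libraries 53 and 47 for 4 of them, and libraries 57, 71 and 80 for 3. Across the 40 mice, Pearson's r between log2 CPM values was 0.94 for Cxcl2 and Cxcl3 (Spearman's rho 0.94), 0.87 for Cxcr2 with either of them (rho 0.87 with Cxcl3 and 0.89 with Cxcl2), and 0.81 for Cxcl5 and Cxcr2 (rho 0.72). Cxcl1 followed Cxcl5 most closely (r = 0.70, rho 0.70) and had the lowest r with Cxcl3 (0.44) and with Cxcr2 (0.45). All 10 pairs passed a permutation test with 100000 resamples, with a highest p of 0.00471 for r and 0.00539 for rho, and these remain the highest after adjustment over the pairs. How many of all gene pairs would pass the same test was not counted. Without the 2 mice farthest from the median of the first gene of a pair, r was 0.93 for Cxcl2 and Cxcl3 and 0.73 for Cxcl5 and Cxcr2, and without library 48 it was 0.94 and 0.76. Within libraries 41 to 60 and 61 to 80, it was 0.94 and 0.95 for the former pair and 0.83 and 0.76 for the latter. After the group means had been subtracted, it was 0.93 and 0.78.

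**Figure D3:**
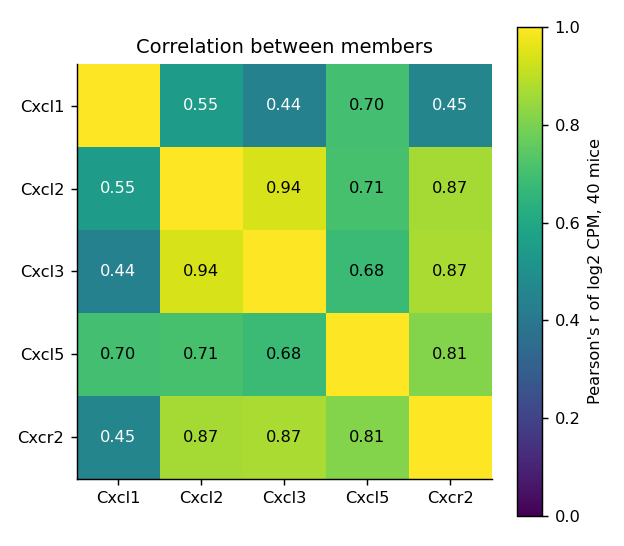
Pearson's r between the log2 CPM values of each pair of genes over 40 mice, on a color scale from 0 to 1. Cxcl2, Cxcl3 and Cxcr2 form the pairs with the highest values (0.94, 0.87 and 0.87), and Cxcl1 with Cxcl3 the lowest (0.44).

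Neutrophil transcripts moved with these genes. Of 25 neutrophil markers, 24 were in the table and 17 passed the filter, and a score was taken as their mean log2 CPM in each mouse. The r of this score was 0.93 for Cxcr2 (rho 0.91), 0.88 for Cxcl2 (rho 0.89), 0.84 for Cxcl3 (rho 0.83), 0.72 for Cxcl5 (rho 0.62) and 0.45 for Cxcl1 (rho 0.50). In a permutation test adjusted over the 5 genes, Cxcl1 had p = 0.00303 for r and 0.00116 for rho. The raw p of the others was 1e-05 for r, the smallest that 100000 resamples can give, and at most 6e-05 for rho. How many of all genes would pass the same test was not counted. Without the 2 mice farthest from the median score (libraries 48 and 71), r was 0.91, 0.89, 0.84, 0.64 and 0.43 in the same order of genes. Within libraries 41 to 60 it was 0.95, 0.87, 0.81, 0.80 and 0.56, and within libraries 61 to 80 it was 0.94, 0.89, 0.89, 0.71 and 0.38, where the r of Cxcl1 no longer passed (adjusted p = 0.0953 in the permutation test) while its rho, 0.47, did (adjusted p = 0.0397). With the group means subtracted it was 0.89, 0.84, 0.82, 0.69 and 0.37, and there the rho of Cxcl1 no longer passed (adjusted p = 0.0589 in the permutation test).

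**Figure D4:**
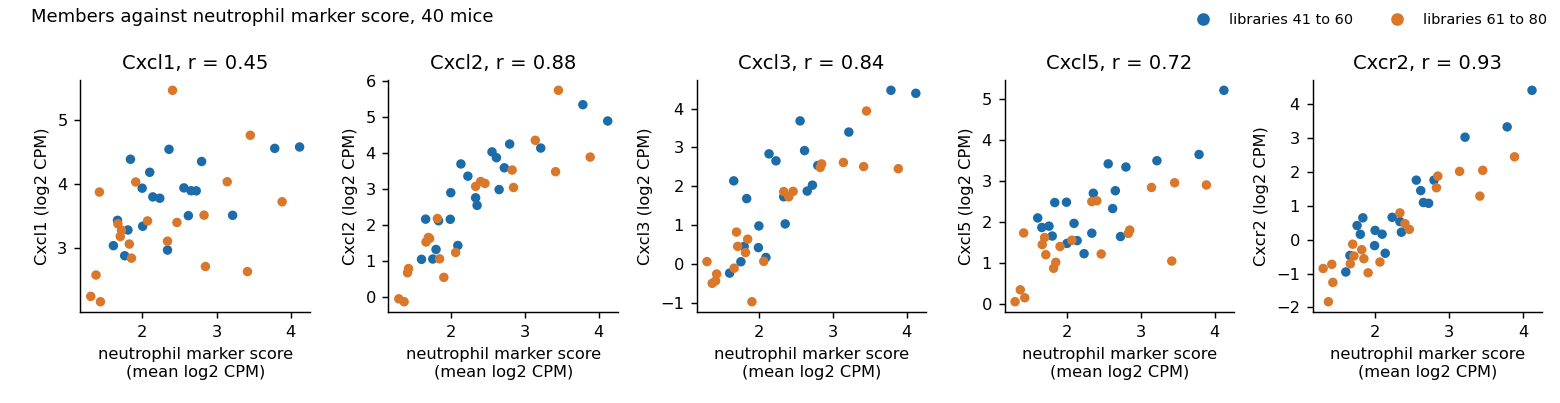
Log2 CPM of each gene (vertical axes) against the neutrophil marker score, the mean log2 CPM of 17 markers (horizontal axes), in 40 mice colored by library number. Cxcr2 follows the score most closely (r = 0.93) and Cxcl1 least (r = 0.45).

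The marker list itself gave the following counts against the isotype control at an unadjusted p under 0.05, with none of the 17 past an adjusted p of 0.05 by edgeR. It had 12 of 17 higher with GARP-FcD + PD-1 (median log2 difference 1.504), 7 higher with TGF-β + PD-1 (0.98), 7 higher and 1 lower with GARP-WT + PD-1 (0.79) and 5 higher with anti-TGF-β (0.84). Of all genes, 10.7%, 8.49%, 13.2% and 1.77% were higher in this order, and 7.47% were lower with GARP-WT + PD-1. With 1 mouse left out, when 17 or 18 markers passed the filter, the number higher ran from 7 (without library 71) to 15 (without library 46 or 50) for the FcD combination, from 4 to 11 for the anti-TGF-β combination, from 4 (without library 77) to 9 for the WT combination and from 0 (without library 48) to 7 for anti-TGF-β. Its summed level ran from 101.9 to 193 CPM in the isotype control, from 172 to 477 CPM with GARP-FcD + PD-1, from 154 to 350 CPM with TGF-β + PD-1 and from 170 to 500 CPM with GARP-WT + PD-1. S100a9, a calgranulin subunit abundant in neutrophils, was at 119.9, 64.4 and 69.3 CPM in libraries 48, 44 and 62. The markers did not move alike in library 62. S100a8 (26.2 CPM), Cd177 (0.453 CPM) and Stfa2l1 (2.27 CPM) were above their medians of 3.82, 0.337 and 0.193 CPM. Csf3r (21.9 CPM), Mmp8 (1.81 CPM) and Trem1 (0.453 CPM) were below theirs of 22.5, 1.94 and 0.862 CPM. The granule genes Elane, Mpo and Camp, made by immature neutrophils, had at most 3, 10 and 6 reads. Clec4e, the receptor Mincle, had the smallest p of the list in the test of any difference (adjusted p = 0.0827) and a log2 difference of 1.55 ± 0.38 with GARP-FcD + PD-1. Fpr1, a formyl peptide receptor, and Clec4d, a C-type lectin, were at 1.77 ± 0.56 and 1.83 ± 0.53 there. With GARP-WT + PD-1, Fpr1 was at 1.97, and at 1.07 without library 77, where it was still called. Mean Clec4e and Clec4d were 18.4 and 43.0 CPM in that group, against 8.73 and 13.5 CPM in the isotype control. With TGF-β + PD-1, Clec4e was at 0.95 and Clec4d at 1.16, and both calls were lost without library 53. Whether neutrophil numbers account for the levels of the ligands was not tested.

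Markers of other cells were also higher by the unadjusted test. With GARP-FcD + PD-1, those higher than in the isotype control at an unadjusted p under 0.05 were 5 of 5 adipocyte markers (summed level 29.3 to 621 CPM against 3.67 to 61.3 CPM), 6 of 6 mast cell markers (median summed level 177 against 63.1 CPM), 6 of 7 epithelial markers, with the seventh lower (median summed level 91.4 against 91.9 CPM), 3 of 5 keratinocyte markers, 4 of 12 macrophage and monocyte markers, 4 of 10 fibroblast markers, 1 of 7 endothelial markers and 1 of 6 general leukocyte markers. None of the platelet and skeletal muscle markers did so. Of all genes, 10.7% were higher in this comparison. Library 71 of that group was the highest of all mice for the adipocyte, keratinocyte and epithelial lists. Without it, the counts were 0 of 7 epithelial, 2 of 5 adipocyte, 1 of 5 keratinocyte, 0 of 12 macrophage and monocyte and 1 of 10 fibroblast markers, against 5.30% of all genes, while 6 of 6 mast cell markers were higher whichever mouse was left out. With GARP-WT + PD-1, 6 of 6 mast cell markers were also higher, whichever mouse was left out (summed level 116 to 427 CPM against 33.6 to 95.9 CPM in the isotype control), as were 8 of 12 macrophage and monocyte, 4 of 7 endothelial, 2 of 7 epithelial, 2 of 6 general leukocyte, 1 of 10 fibroblast, 1 of 5 keratinocyte and 1 of 3 platelet markers, and 0 of 5 adipocyte markers (median summed level 64.7 against 9.23 CPM), against 13.2% of all genes. Without library 77, 1 of 12 macrophage and monocyte and 0 of 7 endothelial markers were higher, against 2.81% of all genes. With TGF-β + PD-1, 3 of 6 general leukocyte, 2 of 6 mast cell, 2 of 7 endothelial, 2 of 12 macrophage and monocyte and 1 of 5 keratinocyte markers were higher, and none of the adipocyte, epithelial, fibroblast, platelet and skeletal muscle markers, against 8.49% of all genes. Its macrophage and monocyte sum ran from 2718 to 3371 CPM (median 3122 CPM) against 1882 to 2748 CPM (median 2299 CPM). In the other groups, the mice with the highest adipocyte sum were library 48 (anti-TGF-β, 341 CPM), library 47 (anti-PD-1, 270 CPM), library 53 (TGF-β + PD-1, 114 CPM) and library 46 (isotype control, 61.3 CPM), each among the 8 highest mice for at least 1 of the 5 genes, and library 42 (GARP-WT, 148 CPM), library 77 (GARP-WT + PD-1, 82.9 CPM) and library 58 (GARP-FcD, 36.8 CPM), which were among them for none. Between libraries 41 to 60 and 61 to 80, the median summed level was 36.7 and 14.2 CPM for the adipocyte list and 90.9 and 115 CPM for the epithelial list. Of the latter, Krt8 had a median of 0.210 CPM in libraries 41 to 60 and 8.91 CPM in libraries 61 to 80, while Krt20 was at 80.0 and 69.5 CPM. Ltf, which encodes lactoferrin of neutrophil granules and of glandular epithelium, was higher in the later libraries by 5.15 ± 0.50 (adjusted p = 4.15e-09 by edgeR), the opposite direction to Cxcr2 and the ligands. Leaving Ltf and Lcn2 out of the score gave an r of 0.95 for Cxcr2 and 0.47 for Cxcl1. The part of these cells in the ligand levels was not tested.

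Other genes of the pathway were counted from lists. Of the remaining ligands, receptors and scavengers of this chemokine class, 3 of 5 passed the filter. Cxcr1, the other receptor of this class, had at most 3 reads. Ackr1, a scavenger that displays chemokines on venules, had a median of 0.208 CPM in the isotype control and of 0.721 CPM with GARP-FcD + PD-1, a log2 difference of 2.03 ± 0.72 (adjusted p = 0.236 by edgeR) that was 1.43 without library 71, where it was no longer called at an unadjusted p under 0.05. Ackr1 was also called under anti-TGF-β, at 2.11 ± 0.72 (adjusted p near 1), and not without library 48 (0.84), and with TGF-β + PD-1, at 1.57 ± 0.73 (adjusted p = 0.224), and not without library 51, 53, 62, 63, 74 or 78. Ppbp, encoding a platelet ligand of CXCR2, was at 1.71 ± 0.79 under anti-TGF-β, a call lost without library 48 (1.23), 51, 59, 63, 74 or 78, and Ackr2, another scavenger, at 0.96 ± 0.50 with GARP-FcD + PD-1 (adjusted p = 0.319 by edgeR).

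Among 8 tested CXC chemokines outside this class, the smallest p-values were those of ligands of CXCR3, a receptor of T cells. Cxcl10 was at 0.92 ± 0.24 (adjusted p = 0.108 by edgeR) and Cxcl11 at 1.15 ± 0.32 (adjusted p = 0.111) with TGF-β + PD-1 relative to the isotype control. Cxcl12, a stromal chemokine that holds neutrophils in the bone marrow, was at 1.46 ± 0.49 with GARP-FcD + PD-1 and at 1.17 ± 0.49 under anti-TGF-β, where it was 0.15 without library 48. In each of these combinations and under anti-TGF-β alone, 4 of the 8 were higher at an unadjusted p under 0.05, and with GARP-WT + PD-1 0 of 8 were, against 10.7%, 8.49%, 1.77% and 13.2% of all genes, respectively, for the FcD combination, the anti-TGF-β combination, anti-TGF-β and the WT combination. With 1 mouse left out, these counts ran from 1 to 4, from 2 to 5, from 0 (without library 48 or 78) to 5 and from 0 to 1.

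Of 8 colony-stimulating factors and receptors, 5 were higher at an unadjusted p under 0.05 with GARP-WT + PD-1, 4 with GARP-FcD + PD-1 and 0 with TGF-β + PD-1, against 13.2%, 10.7% and 8.49% of all genes. The first count was 0 of 8 without library 77, where 2.81% of all genes were higher. Csf3r, the G-CSF receptor, was well above its ligand, with group medians of 17.9 to 44.4 CPM. Its log2 difference was 1.40 ± 0.48 with the WT combination (adjusted p = 0.159 by edgeR), 1.15 ± 0.48 with the FcD combination and 0.56 ± 0.48 with the anti-TGF-β combination. Csf2rb2 and Csf2ra, subunits of receptors for IL-3 and GM-CSF, were at 1.13 ± 0.38 and 0.82 ± 0.28 with the WT combination. Without library 77, the values of the WT combination were 0.48 for Csf3r, 0.59 for Csf2rb2 and 0.30 for Csf2ra, none of them called, and without library 44 the FcD combination had Csf3r at 0.97, no longer called. Csf3r was highest in library 77, at 159 CPM, where S100a9 was at 9.40 CPM, Cxcr2 at 2.30 CPM and the macrophage markers summed to 8716 CPM, the highest of all mice.

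Upstream, 19 of 23 inducers and signal proteins passed the filter. With GARP-FcD + PD-1, 7 were higher at an unadjusted p under 0.05 and none lower, with TGF-β + PD-1 7 were higher and 1 lower, and with GARP-WT + PD-1 5 were higher and 1 lower. The shares of all genes were 10.7% higher and 5.85% lower, 8.49% higher and 11.6% lower, and 13.2% higher and 7.47% lower, in this order. With 1 mouse left out, the number higher ran from 3 (without library 74) to 7, from 3 (without library 62) to 9 and from 2 (without library 74 or 77) to 5. Il1b, encoding the cytokine IL-1β, was at a median of 50.5 CPM in the isotype control, 82.6 CPM with the FcD combination and 72.5 CPM with the anti-TGF-β combination, with log2 differences of 0.69 ± 0.28 (adjusted p = 0.251 by edgeR) and 0.74 ± 0.28 (adjusted p = 0.164), the latter 0.47 without library 62. With the WT combination it was at 46.2 CPM and 0.080 ± 0.28. Tnf was at 1.16 ± 0.34 and Il1a at 1.16 ± 0.34 with the FcD combination, while Il1a was at 0.12 ± 0.35 with the anti-TGF-β combination. With the WT combination, Il1a was at 0.71, a call lost without several mice, among them library 77 (0.61). Mean Tnf was 15.9 CPM with the WT combination, against 8.35 CPM in the isotype control. Of 8 regulators of AU-rich mRNA decay, 3, 1 and 3 were higher with the FcD, anti-TGF-β and WT combinations, respectively, and 1 was lower with the anti-TGF-β combination, against the same shares of all genes. The count of the WT combination was 0 without library 77. Zfp36, whose product tristetraprolin binds AUUUA, was at 0.58 ± 0.22, 0.66 ± 0.22 and 0.61 ± 0.22 in that order, Zfp36l1, its relative, at 0.39 ± 0.16, -0.025 ± 0.16 and 0.43 ± 0.16, and Zc3h12a, the endoribonuclease Regnase-1, at 0.46 ± 0.18, 0.065 ± 0.18 and 0.40 ± 0.18. Without library 77, the WT combination had Zfp36 at 0.35, Zfp36l1 at 0.21 and Zc3h12a at 0.15, and without library 44 the FcD combination had Zfp36l1 at 0.28. No gene of these pathway lists passed an adjusted p of 0.05 in a comparison with the isotype control.

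The genes whose log2 CPM followed each member most closely over the 40 mice were looked up among all 14760 tested genes, as a description. For Cxcr2 they were Hdc, encoding histidine decarboxylase (r = 0.92), S100a9 (0.90) and S100a8 (0.89). For Cxcl2 they were Cxcl3 (0.94), S100a9 (0.92) and the transcript RP24-83D14.4 (0.90), and for Cxcl3 they were Cxcl2 (0.94), the long noncoding RNA Mirt2 (0.89) and RP24-83D14.4 (0.89). Cxcl5 was closest to G0s2, an inhibitor of the lipase ATGL that neutrophils express (0.85), then to Cxcr2 (0.81) and S100a9 (0.81). The closest gene to Cxcl1 was Lcn2, encoding lipocalin 2 (0.81), followed by Cxcl5 (0.70) and the cytokine gene Osm (0.67). S100a8, S100a9, Hdc, G0s2 and Lcn2 are also on the marker list behind the score.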

How the data were processed

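Per the labels and the study's methods, mRNA of tumor fragments was sequenced as paired ends (TruSeq Stranded mRNA, HiSeq), reads were aligned to GRCm38 with STAR 2.5.3a, and SAMtools 1.6 and HTSeq 0.9.1 were used. The authors deposited whole-number counts per gene, without normalization. The annotation version is not given in the sources used here. No pair of libraries was identical (0 pairs).

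The counts were tested with edgeR 4.0.16 (R 4.3.3): TMM factors, filterByExpr by group (14760 of 54087 genes kept), and the robust quasi-likelihood test in a model of the 8 groups of 5 mice, with Benjamini-Hochberg adjustment over all tested genes and a threshold of 0.05. The difference between library numbers 41 to 60 and 61 to 80 was fitted beside the groups. The SE is the absolute log2 difference divided by the square root of F. Log2 CPM used a prior count of 2. Correlations were tested with 100000 permutations (scipy 1.17.1). The scripts were tested on simulated data. DESeq2 1.42.0, other scaling, no filter, fewer groups, the library numbers as a covariate and leaving out each mouse were the alternatives. Positions and exon lengths come from GENCODE M21.

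The genes, pathway lists and marker lists were chosen with earlier results of these data known. Named by rule were all 6 genes, the 3 genes most correlated with each tested one, and, per pathway list and among the neutrophil markers, the 3 with the smallest p across groups and any past an adjusted p of 0.05. Other genes were named after their values were seen. Depth was 11931730 to 20680548 counts per mouse, so genes with few reads, such as Csf3, carry a counting error beside the spread between mice. Replicate numbers follow accession order and pair no mice.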

Additional observations from a re-analysis of the deposited data

Results flagged for a closer look

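Among 48 sets of 5 mice (6 genes in 8 groups), 9 held a mouse far from the other 4 by Dixon's test on CPM, where chance gives about 1 in 20 if values are normally distributed and sets are independent. The sets are not independent, since they share mice, and the distribution of CPM was not tested. Log2 CPM, a scale chosen after seeing the data, covered 40 sets, those of the 5 tested genes without Csf3. On it, 3 of these 9 stayed past the critical value (Cxcl1 in library 73, Cxcl3 in library 46 and Cxcr2 in library 48). The low Cxcr2 of library 61 under GARP-FcD was added. The mouse of library 48 (anti-TGF-β) stood apart for Cxcr2 (21.2 CPM), Cxcl5 (37.0 CPM) and Cxcl3 (20.9 CPM). The isotype control mouse of library 46 stood apart for Cxcl2 (14.5 CPM), Cxcl3 (7.42 CPM) and Cxcr2 (2.60 CPM). Cxcl3 also set apart library 47 under anti-PD-1 (12.7 CPM) and library 44 under GARP-FcD + PD-1 (22.1 CPM), and Cxcl1 set apart library 73 under GARP-WT (43.7 CPM). S100a9 was at 119.9 CPM in library 48 and 64.4 CPM in library 44, against a median of 10.1 CPM over all mice.

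The difference of Cxcr2 between mice with and without anti-PD-1 was larger with GARP-FcD at an unadjusted p under 0.05 (interaction 2.55 on the log2 scale, adjusted p = 0.787 by edgeR), and not without library 46 (1.598). Between libraries 41 to 60 and 61 to 80, the difference of GARP-WT from the isotype control changed by 2.68 for Cxcl1 (from -0.64 to 2.04) and by 3.51 for Cxcl3 (from -1.93 to 1.58). That of GARP-WT + PD-1 changed by 3.22 for Cxcl3 (from -0.59 to 2.63). Each of these 3 changes had an unadjusted p under 0.05, with an adjusted p of 1, 1 and 0.445 by edgeR. Of all genes, 0.515% changed upward at that threshold for GARP-WT and 5.53% for GARP-WT + PD-1.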

How the results depend on the processing

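No paired analysis was possible because the labels give no replicate numbers that tie mice of different groups. Comparisons within a run of library numbers, and the score without Ltf and Lcn2 or without library 48, were chosen after seeing the data. Of the counts of the 5 genes past an adjusted p of 0.05, 121 kept their value under the alternatives that leave out no mouse, and 5 moved from 0. For GARP-FcD + PD-1 against GARP-FcD, the count was 2 with these groups alone in the model (Cxcl5 and Cxcr2, with 3.49% of all genes called) and 1 with DESeq2 (Cxcr2, with 0.556%). DESeq2 gave 1 for any difference among the groups (Cxcr2, with 4.01% of all genes) and 1 between the runs of libraries (Cxcl5, with 1.71%). Within libraries 61 to 80, the count was 1 for GARP-WT + PD-1 against GARP-WT (Cxcl1, log2 difference -1.78, adjusted p = 0.0457 by edgeR), where 14.1% of all genes were called. GARP-WT had 2 mice there, at 8.97 and 43.7 CPM, and over all libraries the difference was 0.50 without the second of them, library 73. The r of Cxcl1 with the neutrophil score was 0.38 within libraries 61 to 80, where it no longer passed the permutation test, while its rho did.

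Leaving out 1 mouse at a time gave counts from 0 to 1 for GARP-FcD + PD-1 against GARP-FcD (1 without library 50, with 4.81% of all genes called), for any difference among the groups (1 without library 48, 50 or 53, with 2.61%, 7.74% and 15.3%) and for the runs of libraries (1 without library 59 or 73, with 1.67% and 1.75%). The other counts stayed at 0.

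Log2 differences that turned sign had main estimates whose 95% intervals included 0. The cause was not tested. Within libraries 41 to 60 they were, for GARP-WT against the isotype control, Cxcl1 -0.64, Cxcl5 -0.57 and Cxcr2 -0.97. They were Cxcl1 -0.10 for GARP-FcD and Cxcl2 -0.071 for anti-PD-1 against that control, and Cxcl2 -0.11, Cxcl3 -0.59, Cxcl5 -0.13 and Cxcr2 -0.19 for GARP-WT + PD-1. Against anti-PD-1, GARP-WT + PD-1 had Cxcl1 0.38, Cxcl2 -0.040, Cxcl3 -1.12 and Cxcr2 -0.43, and against GARP-WT it had Cxcl1 1.16 and Cxcl5 0.44. TGF-β + PD-1 against anti-TGF-β had Cxcl3 -0.24, and GARP-FcD + PD-1 against GARP-WT + PD-1 had Cxcl1 -0.019. Within libraries 61 to 80 they were Cxcl2 1.81 and Cxcl3 1.58 for GARP-WT, and Cxcl2 0.37, Cxcl3 -0.081, Cxcl5 0.45 and Cxcr2 0.15 for GARP-FcD, both against the isotype control. There, Cxcl5 was 0.095 for GARP-WT + PD-1 against anti-PD-1, and Cxcl5 0.29 and Cxcr2 1.17 for TGF-β + PD-1 against anti-TGF-β. With the library numbers as a covariate, Cxcl2 was 0.10 for GARP-WT and 0.031 for GARP-FcD. Cxcr2 for GARP-WT was -0.0073 without the filter and -0.018 with only the compared groups.

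With 1 mouse left out at a time, the ranges that crossed 0 against the isotype control were Cxcl1 -0.091 to 1.02, Cxcl2 -0.45 to 0.96, Cxcl3 -0.83 to 0.85 and Cxcr2 -0.23 to 0.93 for GARP-WT. For GARP-FcD they were Cxcl2 -0.83 to 1.02, Cxcl3 -0.49 to 1.59, Cxcl5 -0.50 to 0.066 and Cxcr2 -1.10 to 0.067. They were Cxcl2 -0.36 to 1.40 and Cxcl3 -0.19 to 2.19 for anti-PD-1, and Cxcl5 -0.18 to 0.52 for GARP-WT + PD-1. Against anti-PD-1 they were Cxcl3 -0.29 to 1.06 and Cxcl5 -0.87 to 0.025 (GARP-WT + PD-1), Cxcl3 -0.052 to 1.93 (GARP-FcD + PD-1) and Cxcl1 -0.053 to 0.40 (TGF-β + PD-1). Against the partner mAb they were Cxcl1 -0.72 to 0.50 and Cxcl5 -0.53 to 0.014 (GARP-WT + PD-1), and Cxcl3 -0.23 to 1.29, Cxcl5 -0.77 to 1.13 and Cxcr2 -0.94 to 1.70 (TGF-β + PD-1). Between the combinations with GARP-FcD and GARP-WT, Cxcl3 ran from -0.060 to 1.15. Depth limits Csf3 most, at 0 to 8 reads per mouse.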
